A study of Mus musculus with 6 samples.

Results

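The CDP-ethanolamine pathway is represented here by 6 genes around Pcyt2: the ethanolamine kinases Etnk1 and Etnk2, Pcyt2, which makes CDP-ethanolamine, the phosphotransferase Cept1, and Sgpl1 and Phospho1, which make and remove phosphoethanolamine. A gene was read only from probe sets whose annotation names it alone. That gave 1 probe set each for Pcyt2, Etnk1, Cept1 and Sgpl1, so 4 of the 6 genes were measured, among 18820 genes tested on the arrays. Etnk2 was not analysed here, and Phospho1 was not read because its 2 probe sets are annotated to Abi3 as well. The arrays carried liver RNA of 2-month-old mice of the C57BL6 background, 4 with the Pcyt2+/- genotype (replicates 1 to 4) and 2 wild type (replicates 3 and 4), 1 mouse per array. In the sample titles the mutant mice are named knock-out, but their genotype field is heterozygous, and that field is followed. The labels used here state neither how the mutant allele was built nor the sex or feeding of the mice, and they record no treatment.

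Phosphatidylethanolamine is an abundant membrane phospholipid, and the CDP-ethanolamine branch of the Kennedy pathway is one of its main routes of synthesis in the liver. Ethanolamine kinases first make phosphoethanolamine, Pcyt2 then couples it to CTP to give CDP-ethanolamine, and a phosphotransferase joins the head group to diacylglycerol. Sgpl1, the sphingosine-1-phosphate lyase, feeds phosphoethanolamine into the same pool from sphingolipid breakdown, and Phospho1 is a phosphatase that acts on phosphoethanolamine and phosphocholine. Pcyt2 is held to be the regulated step of the branch.

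All 4 measured genes lay close to the low end of these arrays, so each was read against a floor taken from the same array. The floor came from 1182 probe sets of olfactory and vomeronasal receptors, which liver is not known to express. Their median was 4.23 to 4.24 over the 6 arrays on the log2 scale, and their 95th percentile, above which a gene was called above the floor, was 4.42 to 4.45. The median of all probe sets was 4.40 on every array. All 8 measured hepatocyte markers of 10 listed were above the floor on every array. Their summed linear signal above the receptor median was 13135 to 13993 in Pcyt2+/- and 13507 to 14782 in wild type. Of these 8, 7 had a lower mean in Pcyt2+/- (median -0.064, from -0.33 to 0.03), against 51.9% of all genes (median -0.00073). Limma passed 0 of them, and 1 was lower at an unadjusted p under 0.05, against 3.44% of all genes. Groups that did not overlap were seen for 1 lower and 0 higher markers, against 7.17% and 5.67% of all genes. The part of these markers in the differences below was not tested. Of measured markers, 3 of 6 endothelial, 4 of 6 macrophage and 4 of 6 stellate were also above the floor on every array. So were 2 of 4 cholangiocyte (5 listed), 2 of 4 adipocyte (5 listed) and 2 of 2 blood markers (5 listed). The same held for 1 of 5 lymphocyte and neutrophil (7 listed) and 3 of 4 pancreas and kidney markers (6 listed). Pecam1, Adgre1, Cd68, Krt19, Adipoq, Lep, Cd79a, Nkg7, S100a8 and Umod were at the floor on every array. A signal above the floor thus does not by itself show that liver cells express a gene. In tissue RNA, fewer cells of a type and less RNA per cell cannot be told apart. Each array correlated at 0.995 to 0.998 with the array most like it. The lowest correlation of any pair, 0.991, was that of Pcyt2+/- replicate 3 with wild type replicate 4. The difference of Pcyt2, described next, was -0.21 without the former and -0.24 without the latter.

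Pcyt2 had a lower signal in every Pcyt2+/- liver than in either wild type liver. Its log2 level was 4.638, 4.657, 4.669 and 4.604 in Pcyt2+/- replicates 1 to 4 and 4.887 and 4.796 in wild type replicates 3 and 4. The Pcyt2+/- livers lay together, within 0.064, and a gap of 0.13 separated the highest of them from the lower wild type liver. Pcyt2+/- averaged 4.64 ± 0.028 (SD, n = 4) and wild type 4.84 ± 0.064 (SD, n = 2), which puts the log2 difference at -0.20 (95% interval -0.27 to -0.13). Limma's adjusted p over all genes was 0.264, so Pcyt2 did not pass the threshold of 0.05. Across all 15 ways to split the arrays, the two-sided exact permutation test gave 0.0667, the smallest value possible with 4 against 2. Nothing in the labels says whether the probe set covers the mutated part of the gene, so the value checks the genotype labels only as far as that.

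**Figure D1:**
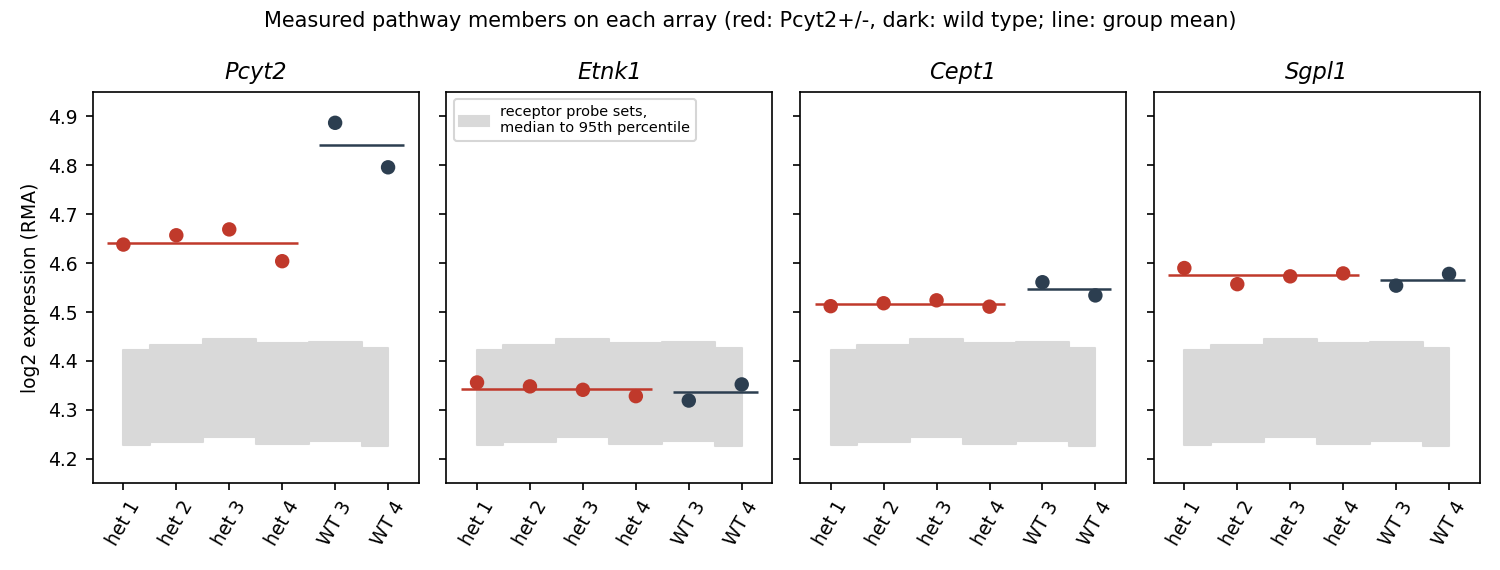
Log2 expression (RMA, vertical axis) of Pcyt2, Etnk1, Cept1 and Sgpl1 on each of the 6 arrays, with Pcyt2+/- in red (het), wild type in dark blue (WT), lines at the group means and the grey band from the median to the 95th percentile of the receptor probe sets. Pcyt2 stands above the band on all 6 arrays with the wild type arrays higher, Cept1 and Sgpl1 stand just above it, and Etnk1 lies inside it.

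Pcyt2 itself was above the floor on all 6 arrays, as were 7349 of all 18820 genes. In Pcyt2+/- livers 0.592% to 0.846% of the receptor probe sets reached its level, and in wild type livers 0.169% did. The linear signal above the receptor median was also taken, which treats the floor as a constant added to the signal, an assumption that was not tested. It was 6.16, 6.41, 6.49 and 5.54 in Pcyt2+/- replicates 1 to 4 and 10.7 and 9.06 in wild type replicates 3 and 4. The means were 6.15 ± 0.43 (SD, n = 4) and 9.9 ± 1.2 (SD, n = 2), so the Pcyt2+/- signal was 62.1% of wild type. The highest Pcyt2+/- liver stood at 71.6% of the lower wild type liver, and the lowest at 51.6% of the higher one. With each array's median over all probe sets as the floor, the share was 50.9%. The choice of floor thus moved the estimate, and neither floor is known to be the signal this probe set would give with no Pcyt2 RNA. On the log2 scale with a pseudocount of 1, the difference in signal above the receptor median was -0.61 (SE 0.09, 95% interval -0.84 to -0.38; limma adjusted p = 0.577). Without subtraction it was -0.20, as given above.

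**Figure D2:**
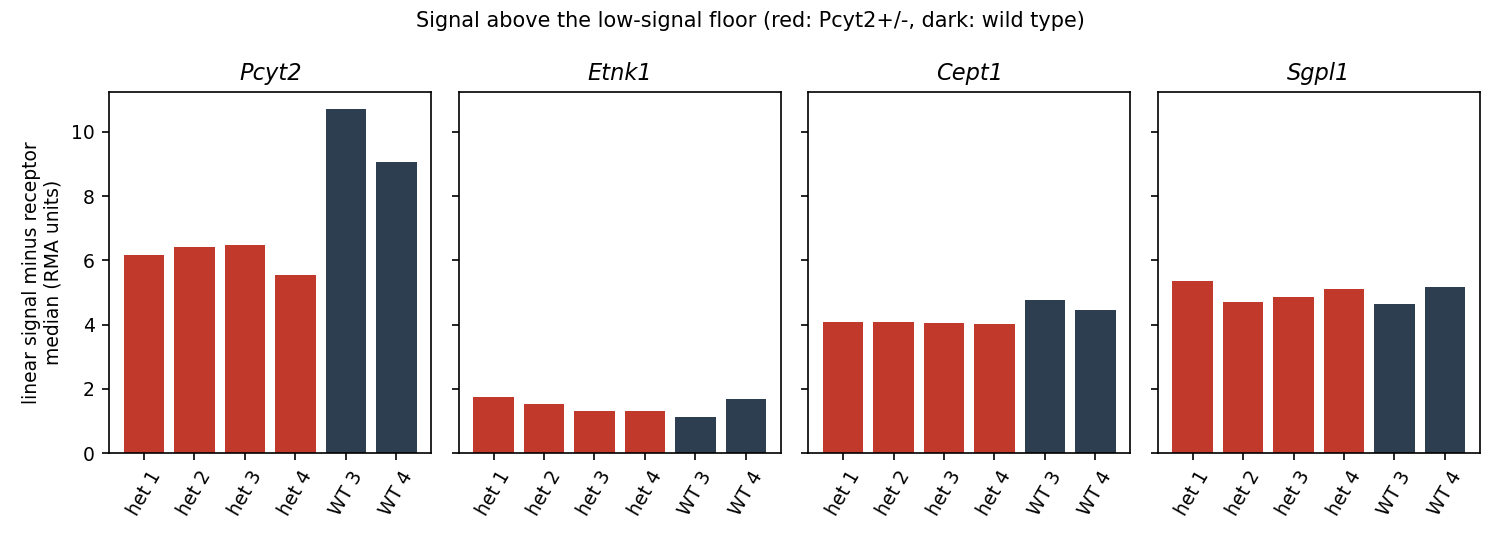
Linear signal minus the array's receptor median (RMA units, bars from 0) for Pcyt2, Etnk1, Cept1 and Sgpl1 on each array, Pcyt2+/- in red (het) and wild type in dark blue (WT). The Pcyt2 bars run from 5.54 to 6.49 in Pcyt2+/- and from 9.06 to 10.7 in wild type, and heights of different genes are not comparable because probe sets differ in brightness.

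Among dim genes, here the 18028 of 18820 with a mean log2 level under 5, the Pcyt2 difference was uncommon in size. Of these, 10 had a lower difference than Pcyt2. Genes of the same level as Pcyt2 were not compared apart. Pcyt2 was above the floor on every array, while 9209 of all 18820 genes were above it on none. Of all 18820 genes, 92 had a lower difference and 15 a smaller unadjusted p. The median difference of all genes was -0.00073. By limma, 0 of 18820 genes (0%) passed an adjusted p of 0.05, and the lowest adjusted p was 0.13. At an unadjusted p under 0.05 there were 648 lower genes (3.44%) and 350 higher genes (1.86%). The position of Pcyt2 among the dim genes is thus a description of size, not a call.

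**Figure D3:**
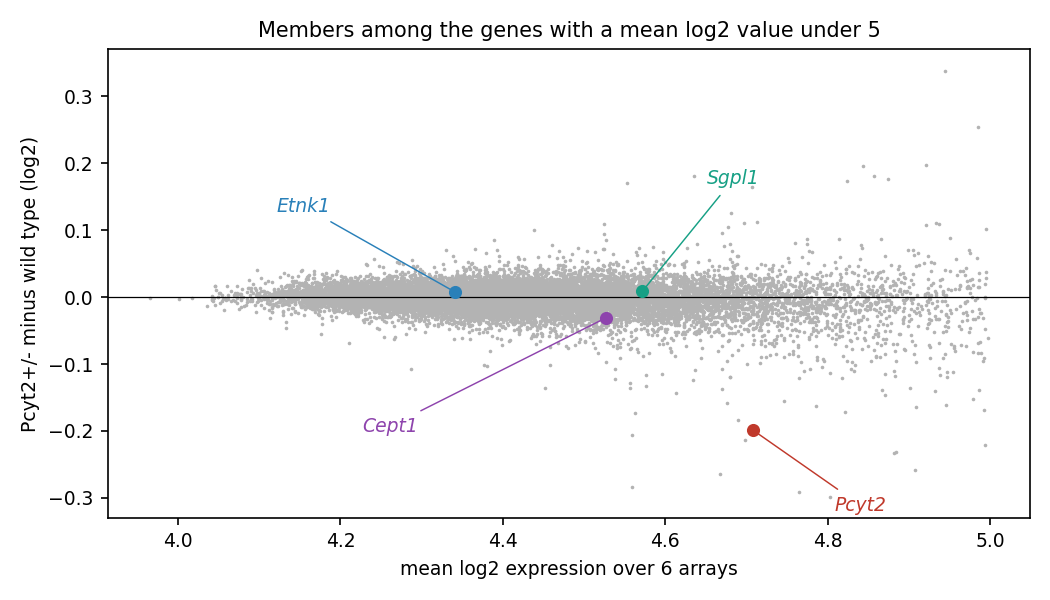
Difference between Pcyt2+/- and wild type (log2, vertical axis) against the mean log2 level over 6 arrays for the 18028 genes with a mean under 5, in grey, with the 4 measured pathway genes in colour. Pcyt2 lies at -0.20, below nearly all of these genes, and Etnk1, Cept1 and Sgpl1 lie within the grey band.

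Etnk1, the kinase that takes the first step, was not above the floor on any array. Its log2 level was 4.36, 4.35, 4.34 and 4.33 in Pcyt2+/- replicates 1 to 4 and 4.32 and 4.35 in wild type replicates 3 and 4. Between 11.7% and 20.5% of the receptor probe sets reached this level, and the level was below the median of all probe sets on each array. The groups overlapped: Pcyt2+/- averaged 4.34 ± 0.012 (SD, n = 4) and wild type 4.34 ± 0.023 (SD, n = 2), with a difference of 0.0078 and a 95% interval of -0.024 to 0.04 (limma adjusted p = 0.995). The sign turned without wild type replicate 3 (-0.0083). In signal above the receptor median the log2 difference was 0.05 with an interval of -0.30 to 0.39. As the probe set was not above the floor, neither interval bounds a change of Etnk1 RNA.

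Sgpl1, the lyase that releases phosphoethanolamine from sphingosine-1-phosphate, was above the floor on all 6 arrays and had overlapping groups. Its log2 level was 4.59, 4.56, 4.57 and 4.58 in Pcyt2+/- replicates 1 to 4 and 4.55 and 4.58 in wild type replicates 3 and 4. Here 0.931% to 1.61% of receptor probe sets reached it. The difference was 0.0088 (SE 0.013, 95% interval -0.023 to 0.04; limma adjusted p = 0.988), and it was -0.0034 without wild type replicate 3. In signal above the receptor median, Pcyt2+/- stood at 102% of wild type, with 5.01 ± 0.28 (SD, n = 4) against 4.91 ± 0.38 (SD, n = 2). The interval of the log2 difference on that scale was -0.13 to 0.18, and with the array median as the floor it was -0.18 to 0.29. With the 99th percentile of the receptor probe sets as the threshold, Sgpl1 was above it on 3 of the 6 arrays.

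Cept1, the enzyme that can transfer both phosphocholine and phosphoethanolamine to diacylglycerol, was slightly lower in all 4 Pcyt2+/- livers than in both wild type livers. Its log2 level was 4.512, 4.518, 4.524 and 4.511 in Pcyt2+/- replicates 1 to 4 and 4.561 and 4.534 in wild type replicates 3 and 4. The groups did not overlap, but the gap between them was only 0.0098. Pcyt2+/- averaged 4.52 ± 0.0063 (SD, n = 4) and wild type 4.55 ± 0.019 (SD, n = 2), which differ by -0.031 (SE 0.011). Limma's adjusted p was 0.895 and its unadjusted p 0.03, and the two-sided exact permutation p was 0.0667, the smallest possible. Without wild type replicate 3 the difference was -0.018.

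Cept1 was above the floor on all 6 arrays, with 1.44% to 2.37% of receptor probe sets at or above it, but with their 99th percentile as the threshold it was above on 0 arrays. The linear signal above the receptor median was 4.06 ± 0.032 (SD, n = 4) in Pcyt2+/- and 4.6 ± 0.21 (SD, n = 2) in wild type, a share of 88.2%. With the array median as the floor the share was 77.5%. With both Pcyt2 and Cept1, 2 of the 4 measured genes were lower with groups that did not overlap, and 7.17% of all genes were lower in that way (5.67% were higher). Neither passed the test over all genes, and with 4 genes this count carries little weight.

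As a measure of likeness, each gene's mean over the 6 arrays was subtracted and the mean absolute distance from the Pcyt2 pattern was taken. It was 0.075 for Cept1, the 990th nearest gene, and 0.092 for both Etnk1 and Sgpl1 (13108th and 13490th), where a gene with no variation at all would be at 0.089. The 5 genes nearest to Pcyt2 were Apob, the structural protein of VLDL (0.014), Slc37a4, the glucose-6-phosphate transporter (0.017), Mfsd2a, a lysophospholipid transporter (0.018), Ces1d, a carboxylesterase (0.022), and Abcd3, a peroxisomal transporter (0.026). All 5 were lower in the 4 Pcyt2+/- livers than in both wild type livers, which the measure favours, and no test is drawn from it. The distance was taken on log2 values without subtraction of a floor. Apob averaged 9.10 in Pcyt2+/- and 9.27 in wild type, far above the level of Pcyt2. A small distance thus need not mean a like change in signal above the floor. Slc37a4 was at 4.61, 4.65, 4.66 and 4.59 in Pcyt2+/- replicates 1 to 4 and at 4.85 and 4.83 in wild type replicates 3 and 4.

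Other genes of ethanolamine phospholipid metabolism were looked at in 5 lists of 34 genes, of which 33 were measured. None passed limma over all genes (0 fell, 0 rose, 33 did not pass). At an unadjusted p under 0.05, 1 was lower and 0 were higher, against 3.44% and 1.86% of all genes. The mean was lower in Pcyt2+/- for 17 and higher for 16, with a median difference of -0.00049, against -0.00073 for all genes, where 51.9% had a lower mean. Groups that did not overlap were seen for 3 lower and 1 higher gene, against the shares of 7.17% and 5.67% over all genes. Of the 33 genes, 14 were above the floor on every array and 15 on none, so for many of them the arrays hold little signal to compare. The same holds for the arrays as a whole: of all 18820 genes, 7349 were above it on every array and 9209 on none.

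In ethanolamine and phosphoethanolamine supply and removal, all 12 listed genes were measured. Of these, 8 had a lower mean (median -0.0065), against 51.9% of all genes. Gde1, a glycerophosphodiesterase, had the smallest unadjusted p, with 4.45, 4.45, 4.46 and 4.45 in Pcyt2+/- replicates 1 to 4 and 4.48 and 4.57 in wild type replicates 3 and 4. One wild type liver was high: the difference was -0.073 with both, -0.03 without wild type replicate 4 and -0.12 without wild type replicate 3 (limma adjusted p = 0.817 with both). Sphk2, a sphingosine kinase, differed by -0.038, and Gdpd1, a lysophospholipase D that was at the floor on every array, by -0.023. These were the 3 lower genes of the 12 whose groups did not overlap, where 7.17% of all genes were lower in that way. Etnppl, which breaks down phosphoethanolamine in the liver, was named after its values were seen: it had 4.67, 4.63, 4.55 and 4.57 in Pcyt2+/- replicates 1 to 4 against 4.66 and 4.66, and the groups overlapped. The carriers Slc44a1, Slc44a2 and Flvcr1, also named after their values were seen, differed by -0.0061, 0.0046 and 0.0029.

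In the last step and the supply of CTP, 4 of 4 listed genes were measured (median -0.015). Selenoi, the phosphotransferase that prefers ethanolamine, had 4.50, 4.50, 4.48 and 4.43 in Pcyt2+/- replicates 1 to 4 and 4.50 and 4.51 in wild type replicates 3 and 4. Its difference of -0.028 was -0.01 without Pcyt2+/- replicate 4, the lowest liver. Chpt1, the choline phosphotransferase, differed by -0.051 (-0.017 without wild type replicate 4 and -0.085 without replicate 3). Ctps, a CTP synthase at the floor on every array, differed by 0.017 (0.0061 without wild type replicate 4 and 0.028 without replicate 3).

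The parallel choline branch had a median of 0.0011 over 4 measured genes. Chka, a choline kinase at the floor on every array, differed by 0.029, Pcyt1a, which makes CDP-choline, by -0.0051 (0.00098 without Pcyt2+/- replicate 3), and Pcyt1b, its paralog, by 0.0017 (-0.00098 without Pcyt2+/- replicate 4). The other sources of phosphatidylethanolamine had a median of 0.0072 over 6 measured genes, 5 of which were at the floor on every array. Mboat1 and Lpcat4, lysophospholipid acyltransferases, differed by 0.022 and 0.027, and Ptdss1, a phosphatidylserine synthase, by -0.015. Without wild type replicate 4 these were 0.0054, 0.059 and -0.0029, and without wild type replicate 3 they were 0.04, -0.0054 and -0.027. None of the 10 genes of both lists passed limma (adjusted p from 0.949 to 0.997).

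Enzymes that use phosphatidylethanolamine or lipids derived from it had a median of 0.0044 over 7 measured genes of 8. Pemt, which methylates phosphatidylethanolamine to phosphatidylcholine in the liver, was clearly above the floor. Its log2 level was 5.81, 5.71, 5.53 and 5.63 in Pcyt2+/- replicates 1 to 4 and 5.84 and 5.73 in wild type replicates 3 and 4. The groups overlapped, and the difference of -0.12 with an SE of 0.073 was -0.069 without Pcyt2+/- replicate 3, the lowest liver, and -0.064 without wild type replicate 3. Napepld, which releases N-acylethanolamines, differed by 0.013 and was the 1 higher gene whose groups did not overlap, at the floor on every array. Pign, which adds an ethanolamine phosphate to GPI anchors, differed by 0.018 (0.0085 without wild type replicate 3 and 0.027 without replicate 4).

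**Figure D4:**
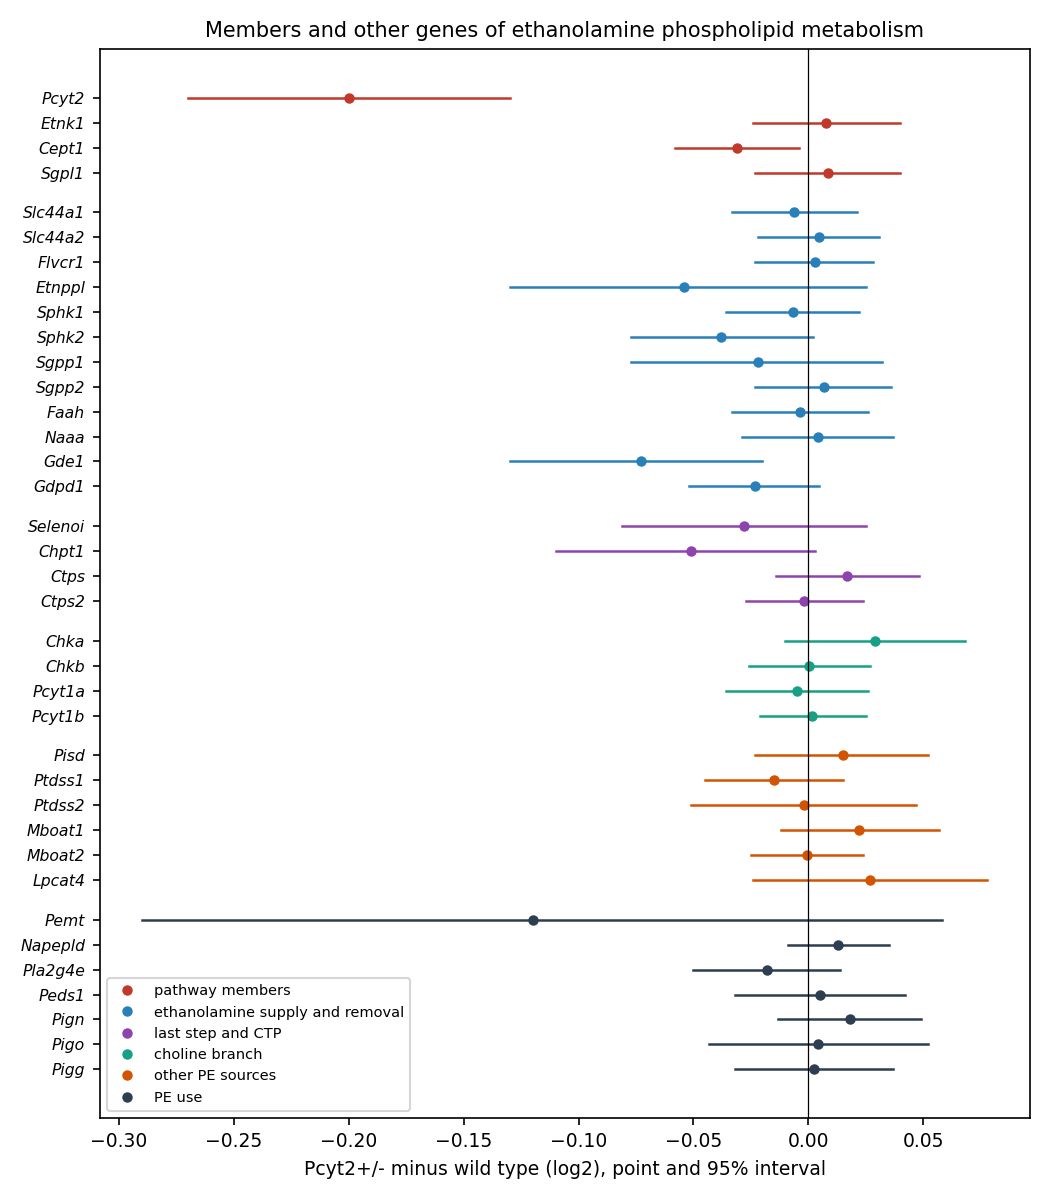
Difference between Pcyt2+/- and wild type (log2, horizontal axis) with its 95% interval from limma for the 4 measured members and 33 other genes, coloured by list. The Pcyt2 interval, -0.27 to -0.13, lies wholly below 0, and those of Cept1 and Gde1 also do, without adjustment for the number of genes.

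Transcription factors listed as candidate regulators of Pcyt2 or of sterol response had differences of -0.025 to 0.013. Of 9 listed, 7 were measured, of which limma passed 0 in either direction, also with 0 at an unadjusted p under 0.05, and the median difference was -0.014. Srebf2, the regulator of sterol synthesis, differed by -0.025, and it was the 1 gene of the list whose groups did not overlap, where 7.17% of all genes were lower in that way. Egr1, an immediate early factor, had 4.50, 4.51, 4.48 and 4.50 in Pcyt2+/- replicates 1 to 4 and 4.50 and 4.55 in wild type replicates 3 and 4, a difference of -0.024 that was 0.00024 without wild type replicate 4 and -0.049 without wild type replicate 3. Sp3, a GC-box binding factor, differed by -0.016 (-0.0095 without wild type replicate 3). Nr1h3, the oxysterol receptor LXR alpha, named after its values were seen, differed by -0.014.

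The genes that lie next to Pcyt2 on its chromosome had smaller differences, on both sides of 0. Of the 10 nearest tested genes on each side in the RefSeq gene order, 11 had a lower and 9 a higher mean, and the median difference was -0.0017. Limma passed 0 of the 20 in either direction, and at an unadjusted p under 0.05 there were 1 lower and 1 higher gene, against 3.44% and 1.86% of all genes. The immediate neighbours were Npb, a neuropeptide gene, and Sirt7, a nuclear deacylase, both named for their position, with differences of 0.01 and 0.0068, both at the floor on every array. The lowest difference among the 20 was that of P4hb, a protein disulfide isomerase 4 places away, at -0.11 (-0.065 without wild type replicate 4). Gcgr, the glucagon receptor, differed by -0.066 (-0.041 without Pcyt2+/- replicate 3) and Mcrip1 by 0.033 (0.018 without wild type replicate 3). Groups that did not overlap were seen for 3 lower genes (Gcgr, Hgs and Aspscr1) and 3 higher ones (Mcrip1, Rac3 and Ppp1r27), of which Hgs, Aspscr1, Rac3 and Ppp1r27 were named after their values were seen. Over all genes the shares were 7.17% lower and 5.67% higher.

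**Figure D5:**
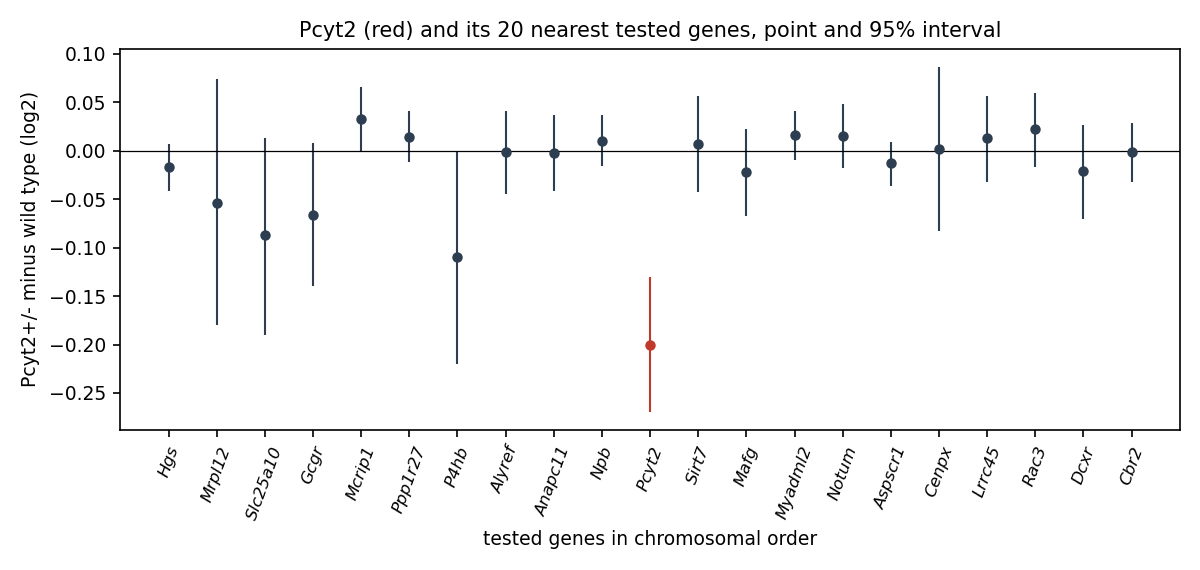
Difference between Pcyt2+/- and wild type (log2, vertical axis) with its 95% interval for Pcyt2, in red, and its 20 nearest tested genes, in chromosomal order without distances. Pcyt2 is at -0.20, and the neighbours run from -0.11 to 0.033.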

How the data were processed

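Liver RNA of 6 mice was measured on Affymetrix arrays, 1 per mouse. Each deposited value is a log2 signal of a probe set, which the authors obtained by RMA, per the submitters' processing notes. The labels state neither the RMA version nor a genome build. Neither coordinates nor sequences are printed. The table held 28996 probe sets, of which 21218 had 1 gene symbol, 1881 several and 5897 were unnamed here. By gene identifier 21185 matched the RefSeq table of assembly GRCm38.p6, used for names and gene order. The row with the highest mean stood for a gene.

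Differences (Pcyt2+/- minus wild type) entered limma (version 3.58.1, R version 4.3.3; lmFit, then eBayes, all 6 arrays, no covariates), two-sided, with Benjamini-Hochberg adjustment over 18820 genes. The number of arrays limits the precision. Steps were tested on simulated data with differences far larger than that of Pcyt2, so that test does not cover differences of this size. Tables and plots used Python 3.11.15. Named genes were the members, up to 3 genes of each list by smallest unadjusted p, and the 5 most like Pcyt2. The members and lists were chosen with earlier results of these data known.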

Additional observations from a re-analysis of the deposited data

Results flagged for a closer look

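In the 4 Pcyt2+/- livers, 25 genes (the 4 measured members and the named genes of the lists) were checked for a liver far from the other three, a check that chance passes in about 1 of 20 groups. It picked out Mboat1, a lysophospholipid acyltransferase, in Pcyt2+/- replicate 3, at a log2 level of 4.32 against 4.34 to 4.35 in the other livers of the group. Mboat1 was at the floor on every array.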

How the results depend on the processing

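Over 17 settings the Pcyt2 difference kept its sign and did not pass. Over the 15 without subtraction of a floor it ran from -0.24 to -0.15, with -0.24 without wild type replicate 4 and -0.15 without wild type replicate 3. It came nearest to the threshold with a trended and robust prior (limma adjusted p = 0.0529), and the adjusted p ran from 0.0529 to 0.964 over the 17. After subtraction of the receptor median or the array median it was -0.61 or -0.82. Cept1 kept its sign in all 16 settings that gave a value (adjusted p from 0.577 to 1). The Etnk1 difference, 0.0078, was -0.00098 with the replicate block, and with single arrays left out it ran from -0.0083 to 0.024. That of Sgpl1 ran from -0.0034 to 0.021. With only genes above 4.6 Etnk1, Cept1 and Sgpl1 gave no value, and Etnk1 gave none after subtraction of the array median. The number of genes called, 0, was 9 with the trended and robust prior, 2 with the replicate block, and 0 to 9 with single arrays left out (9 without wild type replicate 3). Fits without 1 wild type array assume that the other varies like the Pcyt2+/- arrays. The block used only numbers 3 and 4, the numbers shared by both groups. Arrays of the same number correlated in their deviations at 0.15 and 0.072, and arrays of different numbers at -0.19 to 0.19. With 2 wild type arrays the deviations of 1 mirror those of the other, so these values do not settle pairing. The labels do not say that the arrays were paired. The median of the other pathway genes ran from -0.0034 to -0.00016 with single arrays left out (SD of the list's median level over the Pcyt2+/- arrays 0.01). That of the neighbours ran from -0.0083 to 0.0026 and turned sign in 6 of 8 settings (SD 0.017). With the 99th percentile of receptor probe sets as the floor, Cept1 was above it on 0 arrays and Sgpl1 on 3. With the 95th percentile of the unnamed probe sets (5.19 to 5.25), Pcyt2, Cept1 and Sgpl1 were each above it on 0 arrays. Both the low signal and the number of arrays limit these values.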
